A study of Mus musculus with 14 samples.

Results

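The regions described here carried RXRα in mouse embryonic stem cells (mESCs) and had no RXRα peak in gastruloids, while the coactivator p300 was called there in both cell types. They were taken from 24698 RXRα regions of mESCs, each a merged stretch with a peak in both replicates after peaks at input peaks had been dropped. A region was kept when it overlapped no peak of either RXRα gastruloid library and overlapped a merged p300 region with a peak in all 4 p300 libraries, called a shared p300 region below. That left 4509 regions, 18.3% of the RXRα regions of mESCs, which are called RXRα-lost regions. Of the 6916 RXRα regions of mESCs that lay at shared p300 regions, the RXRα-lost ones made up 65.2%. The regions were chosen by the deposited RXRα and p300 peak calls, so presence and height in those lists are given as description with no test. The name stands for a peak that was not called in gastruloids, and not for a measured absence of RXRα.

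ChIP-seq had been done on gastruloids of 120 h, which are embryo-like aggregates grown from mESCs, and on undifferentiated mESCs kept in serum with LIF. Gastruloids were started from sorted single cells in NDiff227 medium and received CHIR99021, an activator of Wnt signalling. All cells came from the E14 triple reporter line, which the protocol describes by its BRA-GFP and SOX17-RFP reporters. RXRα was read through an endogenous Rxrα-HA-FKBP12F36V degron tag with a mix of HA antibodies, in 2 gastruloid and 2 mESC libraries. The p300 libraries, 2 from gastruloids and 2 from mESCs, came from cells with endogenous p300-V5-miniTurboID and were made with a V5 antibody. Sp5 and Zeb2 were profiled in gastruloids alone, 2 libraries each, through the same kind of HA degron tag and the same HA mix, and 1 input per cell type came from the p300 line. The tags are carried by every cell, in gastruloids and mESCs alike, and an untagged control was not analysed here. The labels do not say whether replicates were separate cultures or clones. Gastruloids hold several cell types, so fewer cells with RXRα at a site and less RXRα per cell cannot be told apart. Peak lists hold no transcripts, so the cell types of the labels could not be checked against markers.

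RXRα is a nuclear receptor that binds DNA mainly as a heterodimer, with retinoic acid receptors, PPARs, LXRs and other partners, at repeats of the hexamer AGGTCA. It recruits coactivators or corepressors depending on ligand. p300 is a histone acetyltransferase found at active enhancers and promoters, where many unrelated transcription factors bring it to DNA. Sp5, a target of Wnt signalling, is a zinc-finger factor that binds GC-rich sequence, and Zeb2 is a zinc-finger repressor that binds E-box-like sequence and takes part in epithelial-to-mesenchymal transition.

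The 6 sequences that follow are promoter windows of 300 bases, from 250 bases before to 50 after an annotated gene start, taken from RefSeq on build GRCm38.p6 and printed 5′ to 3′ on the strand of the gene. Among RXRα-lost regions, 32 had an RXRα mESC summit inside such a window. They lay in 33 windows, since the overlapping windows of Dhcr7 and Nadsyn1 share 1 region, and only these windows could be read. Triml2, Dhcr7 and Irf9 are the windows of this set with 2 copies of the nuclear receptor half-site AGGTCA, and Rara, the gene of the retinoic acid receptor α, has 1. Glra2 is the window with the highest RXRα in mESCs and holds no copy. Lipe, the gene of hormone-sensitive lipase, is the window with the highest mESC RXRα among regions that kept RXRα in both gastruloid libraries, and is shown for contrast. These 6 were chosen after their values were seen. Capitals mark the half-site on either strand (AGGTCA, or TGACCT where it lies on the other strand).
Triml2 (chr8:43180286-43180585, plus strand): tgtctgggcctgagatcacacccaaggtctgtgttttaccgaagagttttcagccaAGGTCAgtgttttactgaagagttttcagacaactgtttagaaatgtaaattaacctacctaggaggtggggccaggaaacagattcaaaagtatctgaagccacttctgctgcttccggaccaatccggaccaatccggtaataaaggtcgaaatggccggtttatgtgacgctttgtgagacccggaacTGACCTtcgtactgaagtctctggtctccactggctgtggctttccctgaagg
Dhcr7 (chr7:143822917-143823216, plus strand): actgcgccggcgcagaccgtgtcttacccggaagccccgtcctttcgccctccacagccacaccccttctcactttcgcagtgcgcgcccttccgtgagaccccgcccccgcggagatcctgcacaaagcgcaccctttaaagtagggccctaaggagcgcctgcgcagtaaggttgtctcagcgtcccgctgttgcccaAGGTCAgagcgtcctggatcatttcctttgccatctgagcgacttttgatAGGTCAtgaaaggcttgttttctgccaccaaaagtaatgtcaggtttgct
Irf9 (chr14:55604329-55604628, plus strand): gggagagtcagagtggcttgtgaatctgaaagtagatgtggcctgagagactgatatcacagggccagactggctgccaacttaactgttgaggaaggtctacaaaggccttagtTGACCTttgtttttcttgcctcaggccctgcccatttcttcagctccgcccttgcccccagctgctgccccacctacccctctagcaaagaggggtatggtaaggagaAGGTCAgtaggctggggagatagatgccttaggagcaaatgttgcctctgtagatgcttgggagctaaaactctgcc
Rara (chr11:98964622-98964921, plus strand): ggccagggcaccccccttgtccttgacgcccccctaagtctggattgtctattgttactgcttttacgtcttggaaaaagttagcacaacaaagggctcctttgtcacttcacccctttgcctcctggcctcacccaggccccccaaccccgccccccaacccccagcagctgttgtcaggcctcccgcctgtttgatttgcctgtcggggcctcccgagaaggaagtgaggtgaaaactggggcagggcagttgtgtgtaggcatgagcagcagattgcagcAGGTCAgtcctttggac
Glra2 (chrX:165327344-165327643, minus strand): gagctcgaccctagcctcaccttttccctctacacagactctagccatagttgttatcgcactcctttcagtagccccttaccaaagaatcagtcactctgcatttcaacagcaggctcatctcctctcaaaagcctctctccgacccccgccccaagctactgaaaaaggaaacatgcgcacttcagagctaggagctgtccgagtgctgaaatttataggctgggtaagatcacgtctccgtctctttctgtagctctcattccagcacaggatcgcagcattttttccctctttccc
Lipe (chr7:25395938-25396237, minus strand): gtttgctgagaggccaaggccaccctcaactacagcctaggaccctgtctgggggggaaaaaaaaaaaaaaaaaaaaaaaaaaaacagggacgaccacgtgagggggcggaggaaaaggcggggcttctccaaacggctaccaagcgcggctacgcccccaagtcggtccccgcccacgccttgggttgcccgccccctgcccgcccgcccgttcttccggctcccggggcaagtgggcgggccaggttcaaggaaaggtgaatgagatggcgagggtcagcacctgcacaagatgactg

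In the Triml2 window the half-sites began 194 and 3 bases before the gene start, and in the Irf9 window 135 and 27 bases before it. The Dhcr7 window, at the gene of the last enzyme of cholesterol synthesis, held one 50 bases before the start and one at the start itself. The Rara copy lay 33 bases after the start. The RXRα mESC summit of the Triml2 region was 84 bases before the start, between both half-sites. That of the Irf9 region, 178 bases before the start, and that of the Dhcr7 region, 139 bases before it, lay upstream of both of theirs. The Rara summit was 150 bases before the start and away from its half-site. At Triml2 the RXRα fold, the authors' ratio of signal at the summit to local background, was 7.82 and 5.05 in the 2 mESC libraries, with no peak in either gastruloid library. The p300 fold there was 6.72 and 9.80 in gastruloids, against 14.5 and 14.2 in mESCs. The Rara region had RXRα folds of 5.24 and 4.37 in mESCs, and p300 folds of 2.89 and 3.15 in gastruloids against 11.9 and 11.3 in mESCs. At Glra2 the mESC RXRα folds were 17.8 and 12.4. Lipe had RXRα folds of 23.7 and 12.4 in gastruloids, against 24.6 and 21.4 in mESCs, and it lay at Sp5 and Zeb2 peaks in all 4 of those libraries. The Dhcr7 region had a peak in both Sp5 libraries and in the first Zeb2 library. The Irf9 region had one in the first Sp5 library and in both Zeb2 libraries. Triml2, Rara and Glra2 had no peak of either factor.

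Half-sites were found in 10 of the 33 RXRα-lost windows (30.3%, Wilson 95% interval 17.4 to 47.3%), in 16 of 71 windows of regions that kept RXRα (22.5%), and in 4 of 45 windows at shared p300 regions with no RXRα peak (8.89%, read at the p300 summit). Over all 21238 RefSeq windows the share was 14.7%. The longer form AAGGTCA, which contains the half-site, was in 6 of the 33 windows (18.2%) and in 4.08% of all windows. No direct repeat of AGGTCA with a spacer of 0 to 5 bases was found in the 33, and such repeats were in 0.0659% of all windows. The GC box GGGCGG was in 18 RXRα-lost windows (54.5%), in 88.7% of RXRα-kept windows and in 46.2% of all windows, searched on both strands like the other motifs. At shared p300 regions with no RXRα peak it was in 60% of windows. Median GC content was 54.3% in the RXRα-lost windows, against 66.7% in the RXRα-kept windows and 56.3% in all windows, and the median count of CpG was 9, against 27 and 13. The octamer core ATGCAAA was in 5 of the 33 (15.2%, Wilson 95% interval 6.65 to 30.9%) and in 4.24% of all windows. It was in 4 of the 45 windows at shared p300 regions with no RXRα peak (8.89%, 3.51 to 20.7%), so these intervals overlapped. With 33 windows these shares are a description, and they cover a small and promoter-bound minority of the 4509 regions.

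The RXRα-lost regions lay away from genes' ends. Only 218 of the 4509 (4.83%) had the summit of their strongest RXRα mESC peak within 1 kb of either end of a protein-coding gene, while 1785 (39.6%) lay inside genes and 2506 (55.6%) between them. The median distance to the nearest gene end was 20718 bp, and 755 regions (16.7%) were over 100 kb away. Among the 528 RXRα regions at shared p300 regions that were present in both RXRα gastruloid libraries, called RXRα-kept regions, 184 (34.8%) lay at a gene end. The difference of -30.0 percentage points had an odds ratio of 0.0950 (95% interval 0.0759 to 0.119) and an adjusted p of 4.30e-83 (two-sided Fisher's exact test over regions, adjusted over 6 comparisons). RXRα-kept regions were chosen by an HA peak in gastruloids, and the part of that choice in this difference was not tested. All shared p300 regions, placed by the summit of their strongest p300 peak and not by an RXRα summit, had 11.5% at gene ends. The 2861 shared p300 regions with no RXRα peak in any of the 4 RXRα libraries are called RXRα-free p300 regions. Placed by the p300 summit too, 115 of them (4.02%) lay at gene ends. Against RXRα-free p300 regions the RXRα-lost share was 0.815 points higher, with an odds ratio of 1.21 (0.963 to 1.53) and an adjusted p of 0.129 by the same exact test, which missed the threshold of 0.05. It passed without the first RXRα gastruloid library (6.20 points, adjusted p = 5.57e-23), the first RXRα mESC library (0.938 points, 0.0345) or the second (1.35 points, 0.00560), by Fisher's exact test, and with gene ends drawn at 2500 bp (1.66 points, 0.0238). With all RXRα and all p300 lists cut to equal length it turned to -4.43 points (adjusted p = 2.97e-07, Fisher's exact test). Regions are not replicates, so these p-values measure spread among regions alone.

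Seen from the other side, the share of RXRα regions that went without a gastruloid peak changed with position. At gene ends it was 218 of 972 (22.4%, Wilson 95% interval 19.9 to 25.2%), inside genes 1785 of 2617 (68.2%), and between genes 2506 of 3327 (75.3%, 73.8 to 76.8%). By chromosome the share ran from 59.0% on chromosome 11 to 78.2% on chromosome X, leaving aside chromosome Y with 2 regions, none of them RXRα-lost.

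RXRα-lost regions ranked in the upper part of the RXRα mESC lists. Ranks are taken among all peaks of a list, while the rule asks for a peak in both mESC libraries. The part of this in the ranks was not tested. The median fold at RXRα-lost regions was 9.43 in the first mESC library and 6.22 in the second, which had percentile ranks of 85.9 and 70.9 within their own lists. In both libraries together, 870 of the 4509 regions had a fold over 10. The same share over all RXRα mESC regions was not counted, so this number is not set against a background. RXRα-kept regions ranked higher, at 90.9 and 86.7, and regions with a peak in only 1 gastruloid library ranked lower, at 76.7 and 61.4. When the 6916 regions were cut into 5 equal bins by mESC RXRα fold, the share without a gastruloid peak was 54.8, 66.9, 71.6, 71.2 and 61.5% from the lowest to the highest bin. The share present in both gastruloid lists was 3.97% in the lowest bin and 14.9% in the highest. Cut by mESC p300 fold, the share without a gastruloid peak climbed steadily, through 29.8, 57.8, 72.1, 81.9 and 84.5%.

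**Figure D1:**
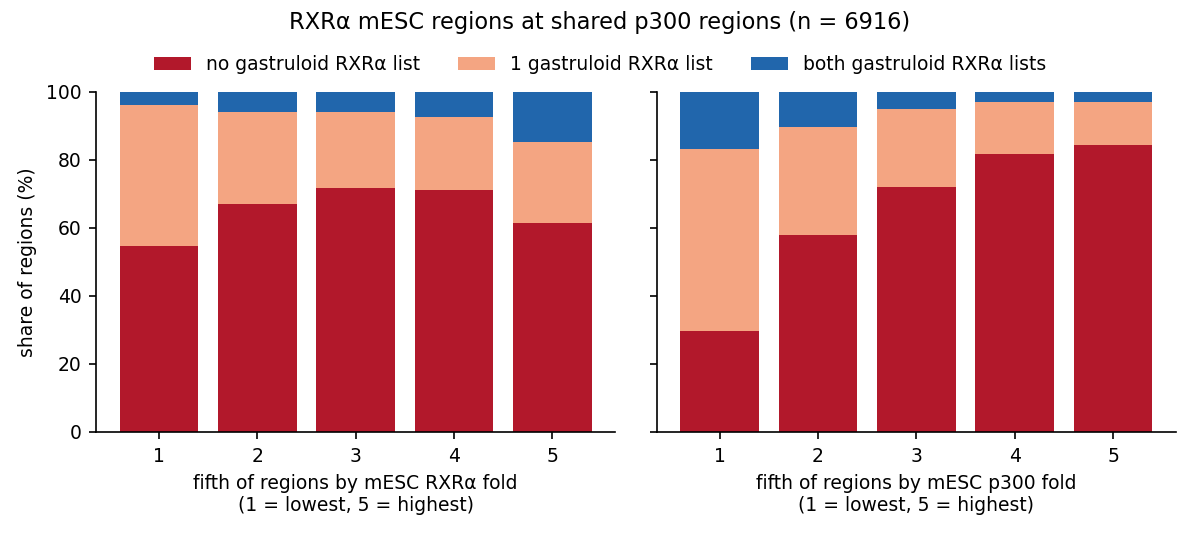
Share of the 6916 RXRα mESC regions at shared p300 regions (y axis, percent) that had a peak in no, 1 or both RXRα gastruloid lists, in 5 equal bins of the RXRα fold in mESCs (left) and of the p300 fold in mESCs (right). The red share lies between 54.8 and 71.6% across the RXRα bins, and it climbs from 29.8% in the lowest p300 bin to 84.5% in the highest.

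p300 at the same regions was high in both cell types. Median p300 folds at RXRα-lost regions were 8.28 and 9.57 in the gastruloid libraries, at percentile ranks of 77.7 and 81.5 in those lists, against 15.1 and 13.8 in the mESC libraries, at ranks of 88.2 and 85.9. RXRα-free p300 regions ranked at 62.8 and 66.8 in gastruloids, against 67.3 and 58.5 in mESCs. RXRα-kept regions ranked at 75.6 and 79.8 in gastruloids, and at 53.6 and 45 in mESCs. RXRα-lost and RXRα-kept regions were therefore close in p300 rank in gastruloids and far apart in mESCs, where the RXRα-lost regions stood higher. Both gastruloid folds were below both mESC folds at 3206 RXRα-lost regions (71.1%), above both at 537 (11.9%), and overlapped with them at the other 766 (17%). Over all 13599 shared p300 regions they were below both at 51.3% and above both at 26.3%. Folds come from separately made lists with no common scale, so a fold that differs between cell types is not a measured change in p300.

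**Figure D2:**
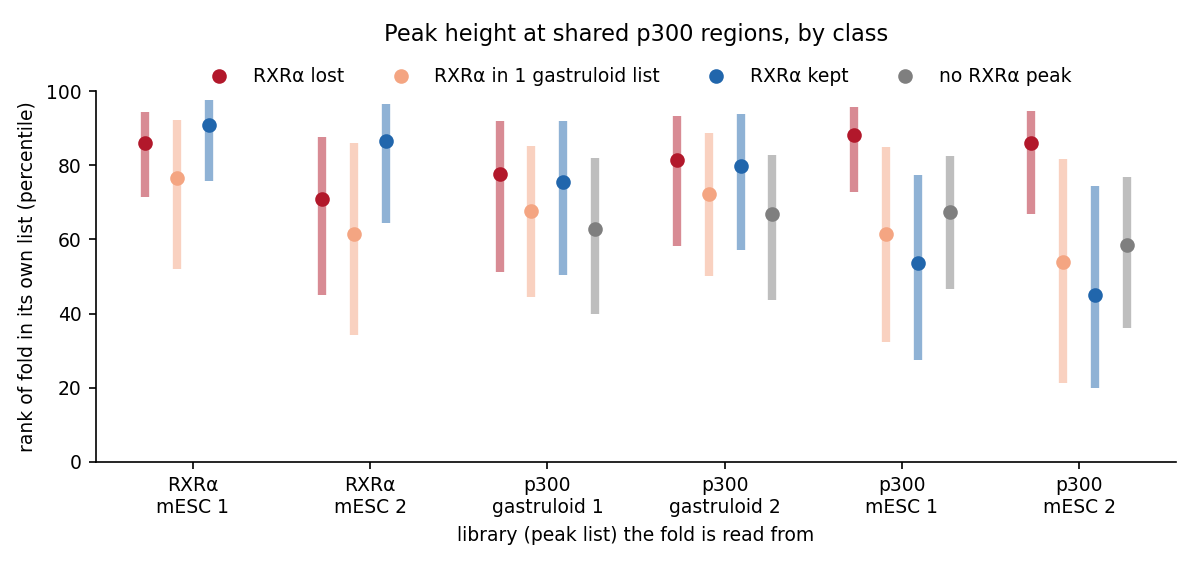
Percentile rank of the fold inside its own peak list (y axis) at 4 classes of region, for 6 libraries along the x axis. Points are medians over regions and bars run from the lower to the upper quartile; in the p300 mESC libraries the RXRα-lost medians are 88.2 and 85.9, and the RXRα-kept medians are 53.6 and 45.

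The p300 summits of both cell types lay close together at RXRα-lost regions. The median distance between a gastruloid and an mESC p300 summit was 24 to 27 bp over the 4 pairs of libraries. Between replicates it was 25 bp in gastruloids and 15 bp in mESCs, so the shift between cell types was about as large as that between the gastruloid replicates. At least 86.6% of the regions had their gastruloid and mESC summits within 100 bp in each pair of libraries. RXRα-free p300 regions were similar, with median distances of 33 to 36 bp between cell types and 30 bp between gastruloid replicates, and at least 82.8% within 100 bp. RXRα-kept regions had median distances of 52.5 to 61 bp between cell types, against 34 bp between gastruloid replicates and 32 bp between mESC replicates, and were wider, with a median width of 765 bp against 555 bp for RXRα-lost regions. RXRα and p300 summits in mESCs were 31 to 37 bp apart in the median at RXRα-lost regions.

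The gastruloid RXRα lists set a limit to what counts as lost. After filtering they held 29867 and 3111 peaks, against 49661 and 28112 in mESCs. Fragment numbers were recovered from the deposited fold and p-value, and came out whole within 0.01 for 100% of the peaks that could be solved in the 12 immunoprecipitation lists, after rounding. By them, 6 and 7 fragments at a summit would have passed the call at the lowest background of the 2 gastruloid lists. RXRα-lost regions had a median of 55 and 32 fragments in the mESC libraries. With the signal above background of the weaker mESC library scaled to the background of the gastruloid libraries, 97.7 and 93.8% of them would have reached that number with their full mESC signal, 67.4 and 58.2% with 50% of it, and 33.6 and 27.4% with 25% of it. Under this scaling, most would therefore have gone uncalled in each library at 25% of the mESC signal. The scaling takes the lowest background and leaves out counting error and differences in enrichment between libraries. It gave similar shares for the 2 gastruloid libraries, although their lists held 29867 and 3111 peaks. These shares therefore do not measure how often such regions would have been called. With every RXRα and p300 list cut to the length of its shortest list by the authors' −log10 q, 1036 of 1305 regions (79.4%) had no gastruloid RXRα peak. Without the first RXRα gastruloid library, which leaves only the short list, 6374 regions (92.2%) met the rule. Without the second, 4523 did, and without the second RXRα mESC library 7281 did.

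At the edge of the rule, the 3 RXRα-lost regions with the weakest mESC RXRα lay near Virma, Fam174b and AA414768, with a −log10 q of 1.31, 1.35 and 1.39 in the weaker library. Just outside it were regions near Nt5c2 and Ywhaz, and 1 on chromosome 13 over 100 kb from any gene end, whose only gastruloid RXRα peak had a −log10 q of 1.34, 1.35 and 1.41. Gastruloid RXRα peaks were also found in the neighbourhood: 1480 RXRα-lost regions (32.8%) had a peak of the first gastruloid library within 10 kb, and 205 (4.55%) had one of the short second library. The figures for RXRα-free p300 regions were 27.6 and 4.37%.

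The 12 RXRα-lost regions with the strongest RXRα in mESCs had no Sp5 or Zeb2 peak in any library, which held for 76.6% of all RXRα-lost regions. The first lay inside Specc1, a gene of a coiled-coil protein, at chr11:62214974-62215523. Its RXRα folds were 34.6 and 33.4 in mESCs, and its p300 folds 29.1 and 37.0 in gastruloids against 34.3 and 33.0 in mESCs. A region 2551 bp from Aurkc, an aurora kinase gene of the germ line (chr7:7005370-7005813), had RXRα folds of 36.9 and 30.4 in mESCs, and p300 folds of 14.2 and 20.5 in gastruloids, against 27.5 and 26.2 in mESCs. Near Cxcr3, a chemokine receptor gene (chrX:101720327-101720856), the RXRα folds were 33.1 and 30.3 and the p300 folds 23.1 and 24.9 in gastruloids, against 25.3 and 22.1 in mESCs. The p300 folds of the cell types overlapped at Specc1 and Cxcr3, and those of Aurkc were below in gastruloids, as at most RXRα-lost regions. Others of the 12 lay near Dcaf12l1, Zmym5, Tenm1, Tmprss11a, Wdr62, Lrrc8c and Zscan2, and 2 were over 100 kb from any gene end. At Dcaf12l1 p300 stood at 8.80 and 9.58 in gastruloids, against 31.5 and 31.1 in mESCs.

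Neighbouring RXRα-lost summits were 240381 bp apart in the median, and 254 of 4489 neighbouring pairs lay within 10 kb. The same spacing over all RXRα mESC regions or all shared p300 regions was not counted, so these values have no background beside them. When each region was given to the protein-coding gene whose end was nearest, up to 100 kb away, 3754 of them fell to 2961 genes, which is 27.4% of the 10815 genes with any RXRα mESC region. Of these genes 2363 had 1 RXRα-lost region, 458 had 2 and 140 had 3 or more. The gene a region acts on may be another one.

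Klf9, a Krüppel-like factor gene that answers to several hormones, had the most: 8 of its 12 RXRα mESC regions were RXRα-lost, and none at shared p300 was kept in a gastruloid list. They spanned chr19:23075679-23170190, with mESC RXRα folds from 4.58 to 15.2 in the first library and from 3.24 to 12.5 in the second. The one with the highest p300, at chr19:23094814-23095426, had p300 folds of 26.8 and 32.2 in gastruloids, against 33.7 and 33.8 in mESCs. Rbpj, the gene of the DNA-binding effector of Notch signalling, had 6 of 15, among them 1 that lay 98 bp from its end. Arid5b had 6 of 10 and Sik1, a salt-inducible kinase gene, 6 of 12. Tfap2c, Plpp3, Slc25a13 and Atp1b1 had 5 each.

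Around pluripotency genes RXRα-lost regions were common. Of 26 genes listed, 19 had at least 1, and 38 of their 128 RXRα mESC regions were RXRα-lost (29.7%), against 16.8% of all 22309 assigned RXRα mESC regions. The list, like the other 15, was chosen with earlier results of these data known, and its share is a description. A region away from shared p300 regions cannot meet the rule, so these shares depend on p300 as well as on RXRα. At shared p300 regions, 5 more regions of this list were in 1 gastruloid library and 2 in both. Over all genes these were 1699 and 484, beside 3754 RXRα-lost ones. Tfcp2l1, a transcription factor of naive pluripotency, had 4 of 9, Tbx3 4 of 17, Klf4 3 of 9 and Prdm14 3 of 8. Named after their values were seen, Nanog had 2 of 4, Esrrb 2 of 9, and Pou5f1 and Sox2 1 each of 4 and 9. Sall4 and Nr5a2, chosen in the same way, had none of 7 and none of 5. No region of these genes lay at a shared p300 region, so none could meet the rule.

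At Tfcp2l1 the region at chr1:118625415-118625826, 2270 bp from the gene, had RXRα folds of 10.1 and 7.71 in mESCs. Its p300 folds were 19.3 and 19.8 in gastruloids, against 31.4 and 31.2 in mESCs. The other 3 had mESC RXRα folds of 8.88 to 13 in the first library and 5.94 to 10.4 in the second. Of the 3 regions of Klf4, a reprogramming factor gene, that at chr4:55475332-55475937 was the highest in RXRα, with 12.5 and 9.49 in mESCs, and had p300 folds of 13.5 and 14.0 in gastruloids, against 15.9 and 16.3 in mESCs. That at chr4:55464111-55465002 had 9.55 and 6.77 for RXRα, p300 of 17.3 and 19.9 in gastruloids against 17.9 and 17.7 in mESCs, and a Zeb2 peak in both Zeb2 libraries. Its p300 values overlapped between the cell types. Inside Tbx3, a T-box factor gene, the region at chr5:119679732-119680532 had RXRα folds of 13 and 9.64 in mESCs, and p300 folds of 17.4 and 21.9 in gastruloids, against 22.4 and 22.7 in mESCs. Prdm14, a repressor of differentiation in naive cells, had its highest p300 at chr1:13084638-13085298, with 14.1 and 14.1 in gastruloids against 24.1 and 23.9 in mESCs, and RXRα of 5.89 and 5.59. At these 14 regions no RXRα gastruloid library had a peak, and p300 was called in all 4 libraries, as the rule asks.

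**Figure D3:**
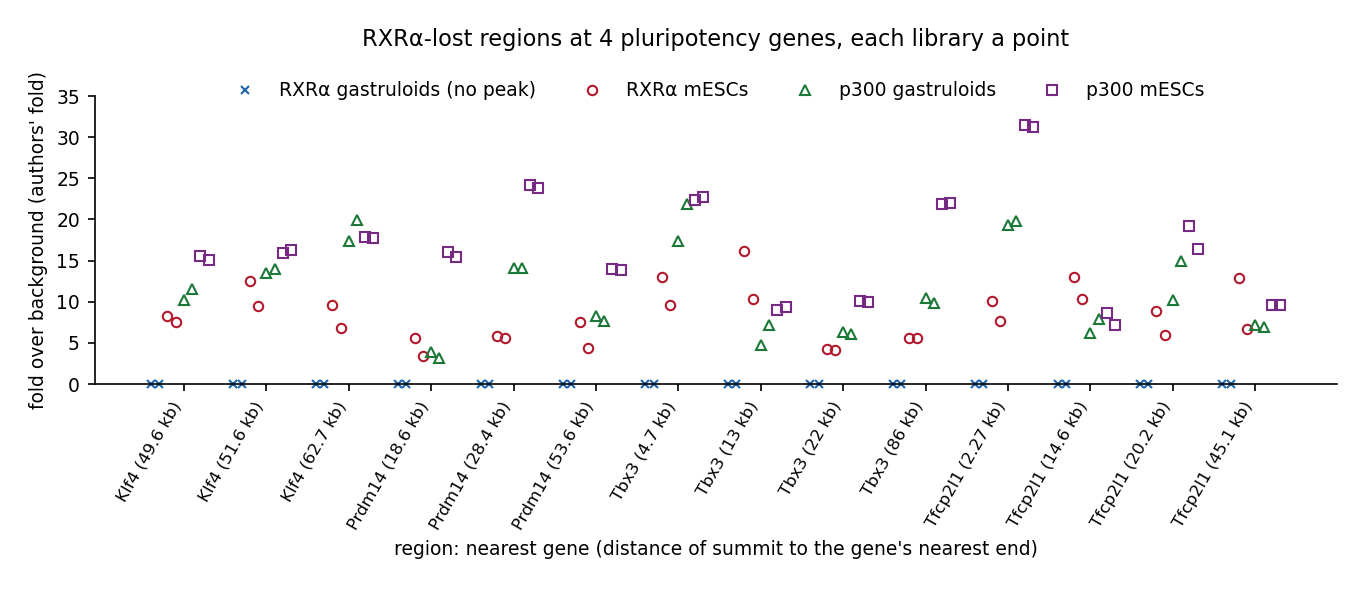
The authors' fold (y axis) in every RXRα and p300 library at the 14 RXRα-lost regions of Klf4, Prdm14, Tbx3 and Tfcp2l1, with the distance of each summit to the gene on the x axis. Crosses on the axis mark RXRα gastruloid libraries, which had no peak and therefore no fold; p300 in gastruloids reaches 21.9 at Tbx3.

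The LIF receptor gene Lifr, through which LIF keeps mESCs undifferentiated, had 4 RXRα-lost regions of 6. The strongest, inside the gene at chr15:7167399-7168338, had RXRα folds of 13.6 and 9.77 in mESCs, and p300 folds of 12.7 and 13.2 in gastruloids against 12.3 and 12.5 in mESCs. Both gastruloid values were slightly above both mESC values there, as at 11.9% of all RXRα-lost regions. Over the list of LIF, FGF and MAPK genes, 17 of 78 RXRα mESC regions were RXRα-lost (21.8%), with 2 each at Dusp6, Etv5 and Spry2, feedback or effector genes of FGF signalling.

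Genes of chromatin regulators had 28 of 93 (30.1%). Eed, a subunit of Polycomb repressive complex 2, had 5 of 7, spread over chr7:89949375-90025469. The region at chr7:89997399-89997994 had RXRα of 13.2 and 8.12 in mESCs, and p300 of 19.4 and 24.3 in gastruloids, against 19 and 16.6 in mESCs. Smarcad1, a chromatin remodeller gene, had 4 of 6, and Jarid2, another Polycomb partner, 3 of 13. The highest p300 at Jarid2 was 16.5 and 23 in gastruloids, against 27.8 and 27.8 in mESCs.

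For retinoic acid signalling, the pathway in which RXRα partners the retinoic acid receptors, the share was 12 of 44 (27.3%). Among its regions at shared p300 regions, none was in only 1 gastruloid library and 1 was kept in both. Aldh1a2, whose enzyme makes retinoic acid, had both of its 2 RXRα mESC regions among the RXRα-lost ones. The one at chr9:71361322-71361724 had RXRα of 6.18 and 5.31 in mESCs, and p300 of 6.80 and 11.5 in gastruloids, against 12.8 and 11.4 in mESCs. Cyp26b1, whose enzyme degrades retinoic acid, had 2 of 6, and the stronger had RXRα of 10.4 and 7.59, with p300 of 6.61 and 8.49 in gastruloids against 6.27 and 5.18 in mESCs. Meis1, a homeobox cofactor gene, had 2 of 3. Cyp26a1 and Dhrs3, named after their values were seen, had RXRα mESC regions (2 and 6) but no RXRα-lost one. None of these lay at a shared p300 region, so none could meet the rule, whatever became of RXRα there. Among genes of nuclear receptors and their cofactors the share was 11 of 92 (12%). Rxra itself had 2 of 3: inside the gene, at chr2:27684164-27684576, RXRα was 6.53 and 6.47 in mESCs and p300 7.61 and 9.13 in gastruloids, against 18.2 and 16.2 in mESCs, with a Zeb2 peak in both Zeb2 libraries. The corepressor gene Ncor1 had a region at chr11:62428830-62429494 with RXRα of 20.0 and 16.3 in mESCs, and p300 of 12.2 and 12.3 in gastruloids against 17 and 17.6 in mESCs.

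Hox genes had 22 RXRα mESC regions and none was RXRα-lost. At shared p300 regions, 1 of them was in 1 gastruloid library and 3 were kept in both. The others lay at no shared p300 region and could not meet the rule. Genes of the primitive streak and tail bud had 9 of 29 (31.0%), each at a different gene, among them Cdx4, Nodal, Lefty1 and Eomes. The Lefty1 region, near the gene of a Nodal inhibitor, had RXRα of 14.6 and 11.1 in mESCs and p300 of 24.2 and 29.3 in gastruloids, against 30.2 and 29.2 in mESCs. At Nodal, RXRα was 10.8 and 8.42 in mESCs, p300 was 5.75 and 7.56 in gastruloids against 16.8 and 15.2 in mESCs, and Sp5 had a peak in both of its libraries. The lists of Wnt, lipid, growth, glycolysis and somite genes had shares from 12.7 to 15.2%, those of BMP and TGF-beta, epithelial and mesenchymal, and trophoblast genes from 20.4 to 23.7%, and the adult tissue control 1 of 5.

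Sp5 was rarely found at RXRα-lost regions. Peaks of the 2 Sp5 gastruloid libraries lay at 6.21 and 3.39% of them, against 68.9 and 54.2% of RXRα-kept regions and 5.70 and 3.22% of RXRα-free p300 regions. Counting regions with a peak in both Sp5 libraries in 1 merged stretch, 129 of 4509 (2.86%) had Sp5, while 282 of 528 RXRα-kept regions (53.4%) and 79 of 2861 RXRα-free p300 regions (2.76%) did. All shared p300 regions had 13.8%. Overlap with Sp5 and Zeb2 was read over the RXRα stretch in RXRα-lost and RXRα-kept regions. In RXRα-free and all shared p300 regions it was read over the p300 stretch. RXRα-lost regions thus differed from RXRα-kept regions by -50.5 points, at an odds ratio of 0.0257 (95% interval 0.0201 to 0.0328) and p = 9.90e-207 after adjustment (two-sided, Fisher's exact test). From RXRα-free p300 regions they differed by 0.0997 points, at an odds ratio of 1.04 (95% interval 0.781 to 1.38) and an adjusted p of 0.829 by the same exact test. This difference was 7.57 points without the first RXRα gastruloid library (adjusted p = 1.91e-31), and -1.09 points without the second p300 mESC library (adjusted p = 0.0141) or with peaks of −log10 q of at least 5 (adjusted p = 0.0155, all Fisher's exact test). With lists of equal length it was -6.53 points (adjusted p = 1.76e-12, Fisher's exact test). The low Sp5 share depended on the rule: without the first RXRα gastruloid library, 877 of 6374 RXRα-lost regions had Sp5, against 204 of 3296 RXRα-free p300 regions. RXRα, Sp5 and Zeb2 were all read with the same HA antibodies. RXRα-kept regions are by choice sites of an HA signal in gastruloids, and RXRα-lost regions are by choice sites with no RXRα HA peak there. The part of this choice in the low Sp5 and Zeb2 shares of RXRα-lost regions was not tested. Its part in their differences from RXRα-kept and RXRα-free p300 regions was not tested either.

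Zeb2 was more frequent at RXRα-lost regions than at RXRα-free p300 regions. Its 2 libraries had peaks at 21 and 6.50% of RXRα-lost regions, against 15.0 and 4.19% of RXRα-free p300 regions, so both libraries gave the same direction although they differed widely from each other. In both libraries together, 297 RXRα-lost regions (6.59%) and 110 RXRα-free p300 regions (3.84%) had Zeb2. The RXRα-lost share was thus 2.74 points higher, the odds ratio was 1.76 (95% interval 1.41 to 2.21) and p = 5.14e-07 after adjustment (two-sided, Fisher's exact test). RXRα-lost regions were chosen by an HA peak in both RXRα mESC libraries, and RXRα-free p300 regions by no HA peak in any RXRα library. Zeb2 was read with the same HA antibodies, and the part of this choice in the Zeb2 difference was not tested. Median widths, which bear on how easily a region meets a peak, were 555 bp for RXRα-lost regions and 535 bp for RXRα-free p300 regions. Within strata of position and gastruloid p300 fold the difference was 1.82 points (Mantel-Haenszel chi-square test over regions, p = 0.000922). With all RXRα and all p300 lists cut to equal length it turned to -2.49 points (adjusted p = 0.0234, Fisher's exact test), with 1036 RXRα-lost regions against 6972 RXRα-free ones. It was 1.30 points with peaks of −log10 q of at least 5, 1.76 without the first RXRα mESC library, 1.72 without the second p300 mESC library, 8.03 without the first RXRα gastruloid library and 6.06 with the first Zeb2 library alone, each past the threshold by the exact test. RXRα-kept regions had 291 of 528 with Zeb2 (55.1%), and all shared p300 regions 14.3%. The difference of RXRα-lost from RXRα-kept regions was -48.5 points (odds ratio 0.0574, 0.0466 to 0.0707, adjusted p = 1.23e-156, Fisher's exact test).

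**Figure D4:**
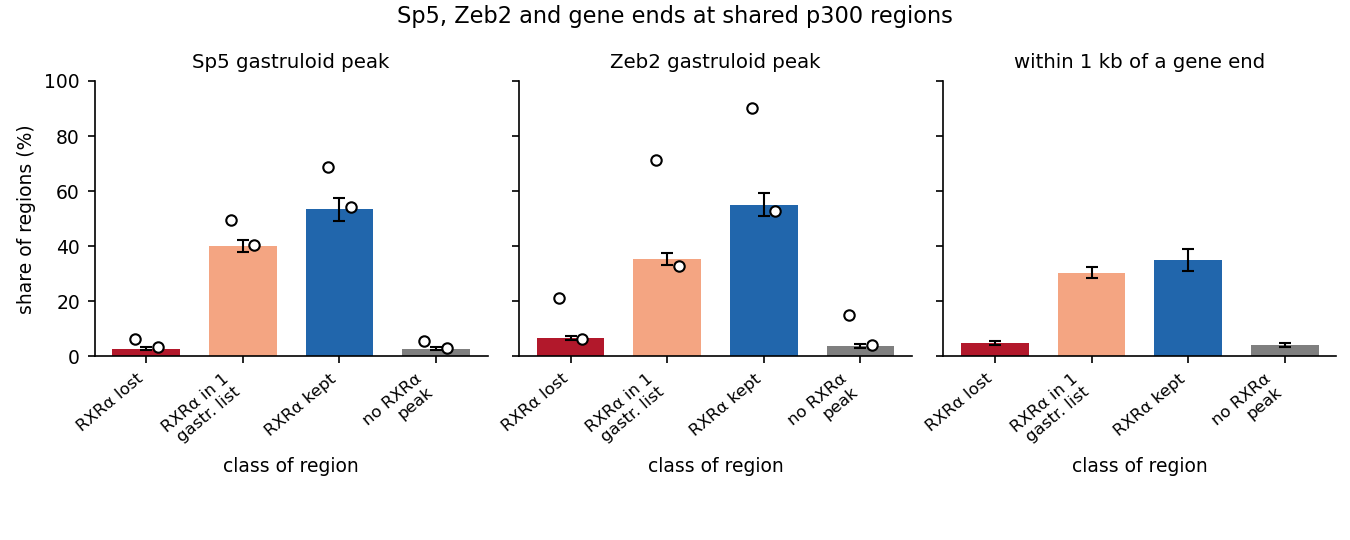
Share of regions (y axis, percent) with an Sp5 region, a Zeb2 region, or a summit within 1 kb of a gene end, for 4 classes of region at shared p300 regions. RXRα-free p300 regions were read over the p300 stretch and p300 summit, and the other classes over the RXRα stretch and RXRα summit. Bars count regions with peaks in both libraries, with Wilson 95% intervals over regions, and circles give each library alone; RXRα-lost regions stand at 2.86, 6.59 and 4.83%, against 53.4, 55.1 and 34.8% for RXRα-kept regions.

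Position was split next. Away from gene ends 5.80% of RXRα-lost and 3.06% of RXRα-free p300 regions had Zeb2, while at gene ends the shares were 22.0 and 22.6%. The odds ratio of RXRα-lost against RXRα-free p300 regions was 1.95 away from gene ends and 0.967 at gene ends. Gene ends held only 218 and 115 regions of these classes, so the contrast between positions is given as a description. Among distal RXRα-lost regions the Zeb2 share was 2.88% in the lowest of 5 bins of gastruloid p300 fold and then 4.01, 4.92, 6.65 and 8.45%. In RXRα-free p300 regions it was 3.18, 1.82, 2.74, 3.86 and 5.45% over the same bins. The intervals of the classes overlapped in every bin. Sp5 stayed between 1.01 and 2.30% in distal RXRα-lost regions, with no order over the bins.

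**Figure D5:**
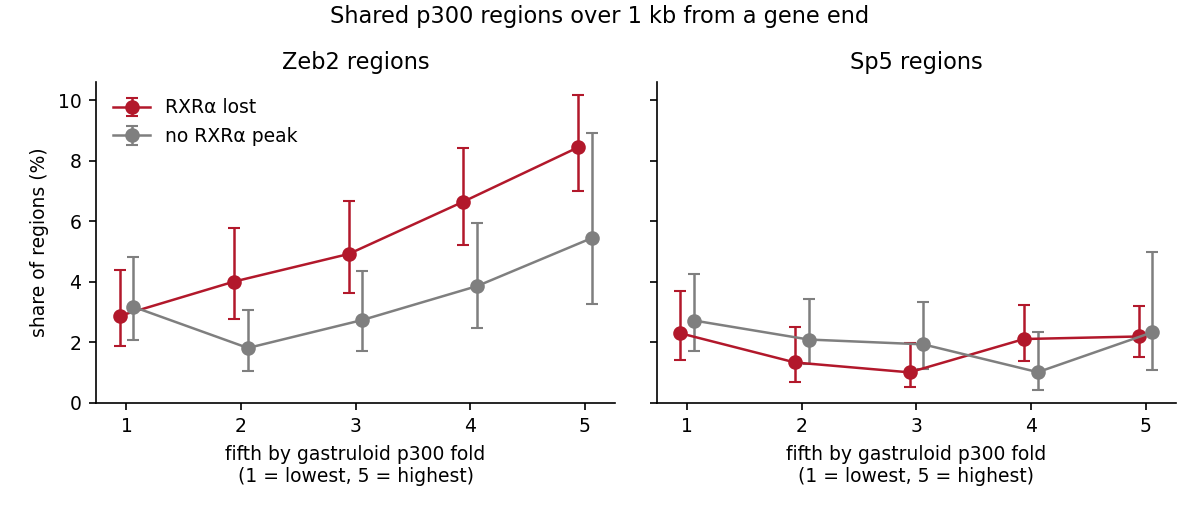
Share of distal regions with a Zeb2 region (left) or an Sp5 region (right), in percent on the y axis, in 5 bins of gastruloid p300 fold, for RXRα-lost regions (red, RXRα stretches) and RXRα-free p300 regions (grey, p300 stretches), with Wilson 95% intervals. Zeb2 at RXRα-lost regions climbs from 2.88 to 8.45%, and the highest Sp5 share of either class is 2.72%.

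Within RXRα-lost regions, both factors were more frequent where p300 ranked higher in gastruloids than in mESCs. The regions were cut into 3 bins of 1503 by the difference of the p300 ranks, as a description with no test. Zeb2 was at 44 regions (2.93%) of the bin lower in gastruloids, 82 (5.46%) of the middle bin and 171 (11.4%) of the bin higher in gastruloids. Sp5 was at 29 (1.93%), 30 (2.00%) and 70 (4.66%). The share at gene ends was 5.92, 3.39 and 5.19%, and so did not follow the same order.

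Both factors were found at 48 RXRα-lost regions (1.06%), against 183 RXRα-kept regions (34.7%) and 29 RXRα-free p300 regions (1.01%). No peak of either in any of the 4 libraries was found at 3455 RXRα-lost regions (76.6%), against 39 of 528 RXRα-kept regions (7.39%) and 2369 of 2861 RXRα-free p300 regions (82.8%). The region with both factors and the highest gastruloid p300 lay inside Sacm1l, a phosphoinositide phosphatase gene, at chr9:123554641-123555169. Its p300 folds were 26.1 and 32.3 in gastruloids, against 10.9 and 8.08 in mESCs, and its RXRα folds 8.67 and 6.34 in mESCs. The region was picked by its gastruloid p300, so its place above the mESC values is a description. The next were near Slc39a14, Tfap2c, Macroh2a1 and Upp1. The Tfap2c region, at chr2:172516514-172517034 near the gene of a trophoblast and germ cell factor, had RXRα of 9.64 and 8.19 in mESCs and p300 of 19.2 and 21.7 in gastruloids, against 19.9 and 18.8 in mESCs. Another at Tfap2c, chr2:172577170-172577693, had RXRα of 22.9 and 23 in mESCs and p300 of 24.9 and 30.2 in gastruloids, against 32.4 and 32.0 in mESCs, with neither Sp5 nor Zeb2. One more, at chr2:172613295-172614010, had p300 of 13.6 and 17.1 in gastruloids, against 5.38 and 4.97 in mESCs. It had a peak in both Sp5 libraries and in the first Zeb2 library, but not in the second.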

How the data were processed

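The authors deposited 1 narrowPeak list per library (14 lists, 422096 peaks), so replicates were not pooled. The submitters' processing notes name MACS2 2.2.7, BWA 2.2.1, fastp 0.20.1 and build GRCm38.p6, also given as mm10. Whether an input served as control is not given in the sources used here. Per the deposited files, each peak has a score, a fold (summit signal as a ratio to local background), a −log10 of p, a −log10 of q, and the summit as an offset in base pairs. The lowest −log10 q matched a q-value threshold of 0.05. The authors made all these values, and the score was not used.

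Peaks off the 21 main chromosomes and peaks at an input peak were dropped. Overlaps needed at least 1 bp. The height of a region in a list is the fold of its strongest peak by −log10 q, and p300 heights are read over the whole overlapped p300 region, so 2 RXRα regions in one p300 region share p300 values. A rank is the percentile of a fold inside its list, since the highest fold of a list lay between 30.0 and 47.7. Sequencing depth is not given, and the fragments at a summit were recovered from fold and −log10 p. Per list the median was 12 to 31 fragments, a size at which counting error can leave a site uncalled.

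Gene positions (21887 protein-coding genes) came from RefSeq's table for this build, which gives no strand, so both ends count as a gene end. A region was assigned to a gene by its nearest gene end, up to 100 kb away. Shares were compared over regions by Fisher's exact test, two-sided, with Benjamini and Hochberg adjustment over 6 comparisons and Wilson 95% intervals that cover counting error only. With 2 libraries against 2 an exact test over libraries cannot go below 0.333, so none was run. Scripts used Python 3.11.15, numpy 2.4.6, pandas 2.3.3, scipy 1.17.1 and statsmodels 0.14.6, and were tested on simulated lists with known classes, shares and fragments.

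The rule, the 16 gene lists (334 genes) and the tests were chosen with earlier results of these data known. Genes were named by a rule: the 12 regions with the highest RXRα rank in mESCs, the 8 genes with most RXRα-lost regions, the 5 regions with Sp5 and Zeb2 that had the highest gastruloid p300, at most 4 genes per list, and 3 regions on each side of the rule. Genes outside it are said to have been chosen after their values were seen. No genome was used, so sequence comes only from RefSeq promoter windows, which leave out chromosome 18.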

Additional observations from a re-analysis of the deposited data

How the results depend on the processing

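All 3 comparisons with RXRα-kept regions kept their direction and stayed past the threshold in each of the 16 alternatives run for each of them. Every alternative still chose RXRα-kept regions by an HA peak in gastruloids. The part of that choice in these differences was therefore not tested by any of them. Leaving out 1 library at a time, the Sp5 difference ran from -62.7 to -38.8 points, the Zeb2 difference from -69.3 to -32.9 and the gene-end difference from -37.3 to -21.6. The Zeb2 difference from RXRα-free p300 regions ran from 1.72 to 8.03 points over the left-out libraries. It reversed with lists of equal length (-2.49 points), the only such case in its 16 alternatives. In every comparison with RXRα-free p300 regions, that setting puts regions whose RXRα peaks were cut away among the RXRα-free ones. The part of this in the reversal was not tested. The Sp5 difference from RXRα-free p300 regions ran from -1.09 to 7.57 points over the left-out libraries, and was -1.09 with −log10 q of at least 5, -0.300 with 50% overlap, -6.53 with lists of equal length, -0.370 with no gastruloid RXRα peak within 1000 bp and -0.00425 within strata of position and p300 height. The gene-end difference from RXRα-free p300 regions ran from 0.0466 to 6.20 points over the left-out libraries. It was -0.503 with −log10 q of at least 5, -4.43 with lists of equal length, -0.467 with the 1000 bp margin, -0.448 with gene ends drawn at 500 bp, 1.66 at 2500 bp and -0.199 with the transcription starts of the promoter table, which was chosen after seeing the data. The cause of these changes was not tested. RXRα-lost regions numbered from 4523 to 7281 over the left-out libraries and 1036 with lists of equal length. Their share of the RXRα mESC regions at shared p300 regions ran from 58.6 to 92.2% over the left-out libraries and was 73.2% with −log10 q of at least 5, 79.4% with lists of equal length and 62.3% with the 1000 bp margin. With −log10 q of at least 5, 79.3% of the 4509 regions were still covered, and with lists of equal length 18%. No paired analysis was possible because each test sets classes of region against each other inside the same gastruloid libraries or by position, while gastruloids and mESCs were compared by the rule alone and got no test. Weak RXRα in gastruloids cannot be told from none at this depth, above all through the short second list.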
